A study of Mus musculus with 16 samples.

Results

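The cadherin genes Cdh1, Cdh2, Cdh3, Cdh5, Cdh6, Cdh11, Cdh13 and Cdh16 were followed through the growth of the mouse epididymis before and just after birth. All probe sets that the array's annotation lists under 1 of these 8 symbols were taken, which gave 8 of the 18193 genes that the annotation names by a single symbol, and 16 probe sets of the 45037 on the array that are not controls. RNA of whole epididymides was hybridised to Affymetrix arrays, with 3 arrays at each of gestational days 12, 14, 16 and 18 (gd12, gd14, gd16, gd18; Theiler stages 20, 22, 24 and 26) and at postnatal day 2 (pnd2; Theiler stage 27). All 15 samples were wild-type males of CD-1, an outbred stock, excised as whole organs, and the RNA went through 2 rounds of amplification. A single further array held a pool of 8 whole newborns of both sexes at postnatal day 0.5. The study's design text states that each sample was the pair of epididymides of 1 animal and that every animal had its own dam. The sample labels instead mark the gd12 and gd14 samples as pooled, with a pool size of 3, and the gd16, gd18 and pnd2 samples as not pooled. Any effect of pooling therefore cannot be told apart from a change between gd12 or gd14 and the later stages. Where the samples were pools, p-values measure the spread between pools.

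Cadherins are membrane proteins that hold neighbouring cells together through calcium-dependent contacts between their outer domains. The classical ones are tied to the actin skeleton inside the cell by beta-catenin and alpha-catenin, and p120-catenin (Ctnnd1) keeps them at the surface. Cells that carry the same cadherin tend to sort together, so the set of cadherins a tissue makes differs with its cell types. Cdh1 (E-cadherin) marks epithelia, Cdh2 (N-cadherin) neural tissue and many mesodermal cells, Cdh5 (VE-cadherin) endothelium and Cdh11 (OB-cadherin) mesenchyme. The epididymis is formed from the Wolffian duct, an epithelial tube that lengthens and coils within mesenchyme.

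Values are signal, a relative intensity on a linear scale, and are compared between stages and never between probe sets. A probe set was tested if 3 or more of the 15 arrays gave it a signal no lower than the median of that array. Of the 16 cadherin probe sets 11 passed, with at least 1 for each of the 8 genes, among 25981 that passed on the whole array. One array stood apart. On pnd2 replicate 3 the signal of 3′ over 5′ probe sets was 63.2 for Gapdh and 80.7 for Actb, against 4.33 to 7.18 and 2.40 to 4.14 on the other 14 arrays, and its median signal was 81.2 against 110.3 to 133. Every result for a cadherin was therefore also computed without it. Of markers of duct epithelium 11 of 11 on the array passed the filter by the gene's brightest probe set, and of mesenchyme 9 of 9. Germ cell markers (8 of 8) and smooth muscle markers (8 of 8) passed too, as did 25981 of all 45037 probe sets. Passing therefore does not single out a tissue, and the tissue label was not tested. The gd12 samples also carried germ cell transcripts. The summed signal of 8 germ cell markers was 15705 to 24009 at gd12, 1193 to 1909 at gd14 and 216 to 601 at the later stages. The summed signal of 8 markers of testis somatic cells was 4279 to 7511 at gd12, 1351 to 2437 at gd14 and 273 to 3926 later. Of 6 skeletal muscle markers 2 passed the filter (Myh3 and Acta1), and their summed signal was 6.14 to 4523 at pnd2, highest on replicate 2, and 22.1 to 320.5 at the other stages. These arrays hold whole organs, so fewer cells of a type and less RNA per cell cannot be told apart.

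From gd12 onward the cadherins moved in different directions (see the plot of signal by array). Cdh2 and Cdh6 fell, Cdh11 rose at gd14, and Cdh16 was higher at pnd2, as was Cdh1 when all 15 arrays were used. A change is called here at a Benjamini-Hochberg adjusted p under 0.05 from limma, fitted to all 25981 probe sets. Over the 5 stages, 6 of the 11 cadherin probe sets changed (Cdh1, both of Cdh2, both of Cdh11 and 1 of Cdh6), against 20.9% of all probe sets. There were 8 without pnd2 replicate 3, Cdh3 and Cdh16 being added, against 38.6% of all.

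**Figure D1:**
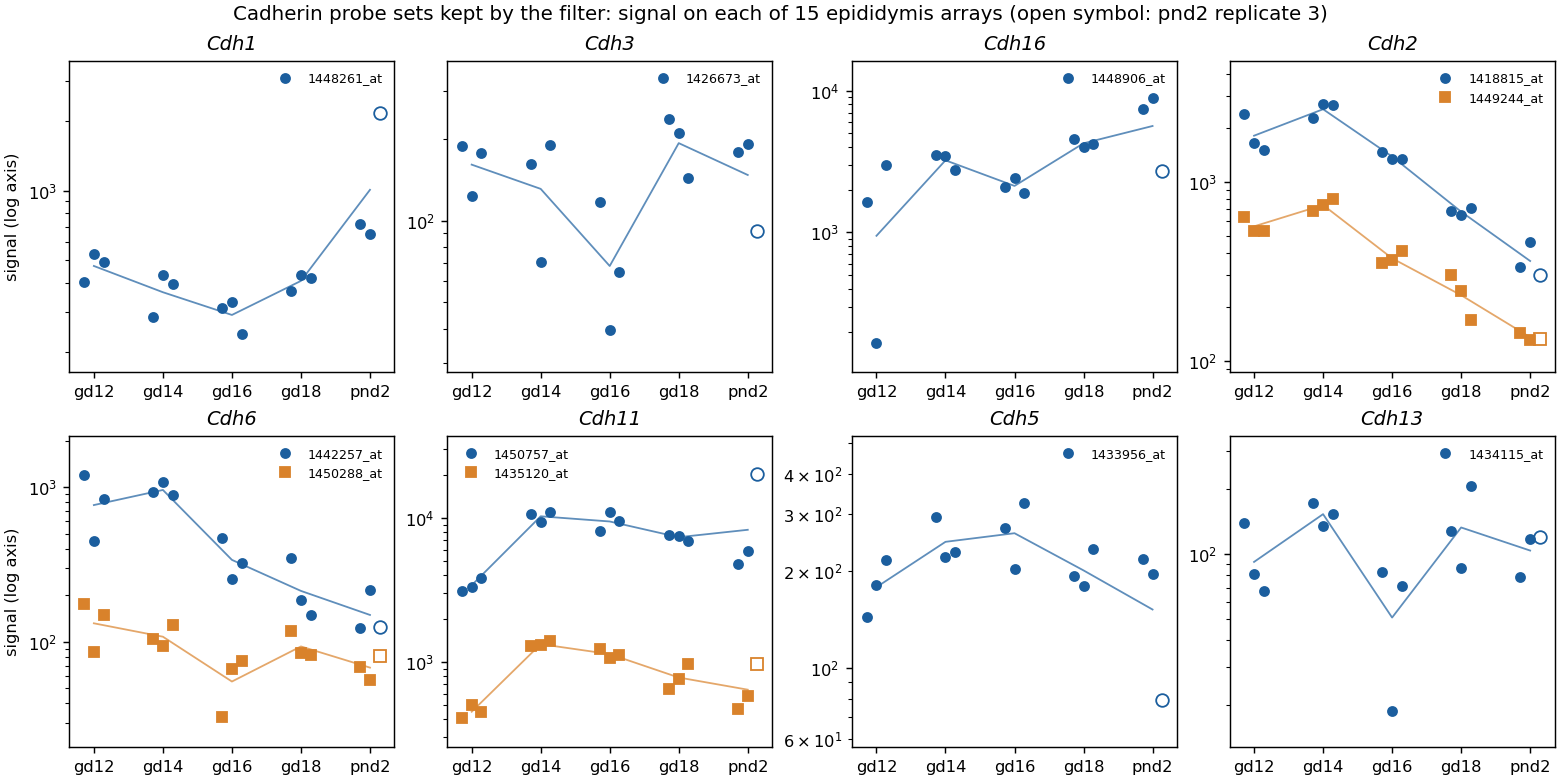
Signal of the 11 tested cadherin probe sets on each of the 15 epididymis arrays (vertical log axes, each panel with its own scale) at gd12, gd14, gd16, gd18 and pnd2. Points are arrays, open symbols pnd2 replicate 3 and lines stage means of log2(signal + 16) turned back to signal. Both Cdh2 probe sets descend from gd14 to pnd2, both Cdh11 probe sets step up at gd14, and Cdh16 has 1 low array at gd12.

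Against gd12, pnd2 had 3 cadherin probe sets higher (Cdh1, Cdh16 and 1 of Cdh11) where 10.3% of all probe sets were higher. It had 3 lower (both of Cdh2 and 1 of Cdh6) where 10.8% of all were lower. The counts without pnd2 replicate 3 were 2 higher, Cdh1 being lost, and 3 lower, against 14.4% and 13.7% of all. The gd18 arrays had 1 higher (Cdh11) and 3 lower (both of Cdh2 and 1 of Cdh6) than gd12, against 9.44% and 7.09% of all. With pnd2 replicate 3 left out, gd18 had 3 higher (both of Cdh11 and Cdh16) and 3 lower, against 17.8% and 15.4%. Both comparisons share the gd12 arrays. The median log2 change over the 8 genes, each by its brightest tested probe set, was 0.02 at pnd2 against gd12, where the median of all probe sets was -0.14.

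By interval, gd14 against gd12 had 2 cadherin probe sets higher, both of Cdh11, where 5.08% of all were higher, and 0 lower where 3.63% of all were lower. At an unadjusted p under 0.05, 4 of the 11 differed in limma in that interval, as did 5771 of all 25981 probe sets. From gd14 on, 0 of the 11 were called in limma in any interval. The shares of all probe sets called in either direction were 0.0616% for gd16 against gd14, 0.142% for gd18 against gd16 and 0.558% for pnd2 against gd18. At an unadjusted p under 0.05 there were 5, 5 and 3 of the 11 cadherin probe sets in these 3 intervals. Of all 25981 probe sets there were 1344, 1637 and 5338. Without pnd2 replicate 3, gd14 had 3 higher than gd12 (13.7% of all), Cdh2 being added. In the same fit gd16 had 2 lower than gd14 (both of Cdh2; 0.266% of all). There gd18 had 1 lower than gd16 (Cdh2; 0.327% of all) and pnd2 1 lower than gd18 (Cdh2; 1.19% of all).

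**Figure D2:**
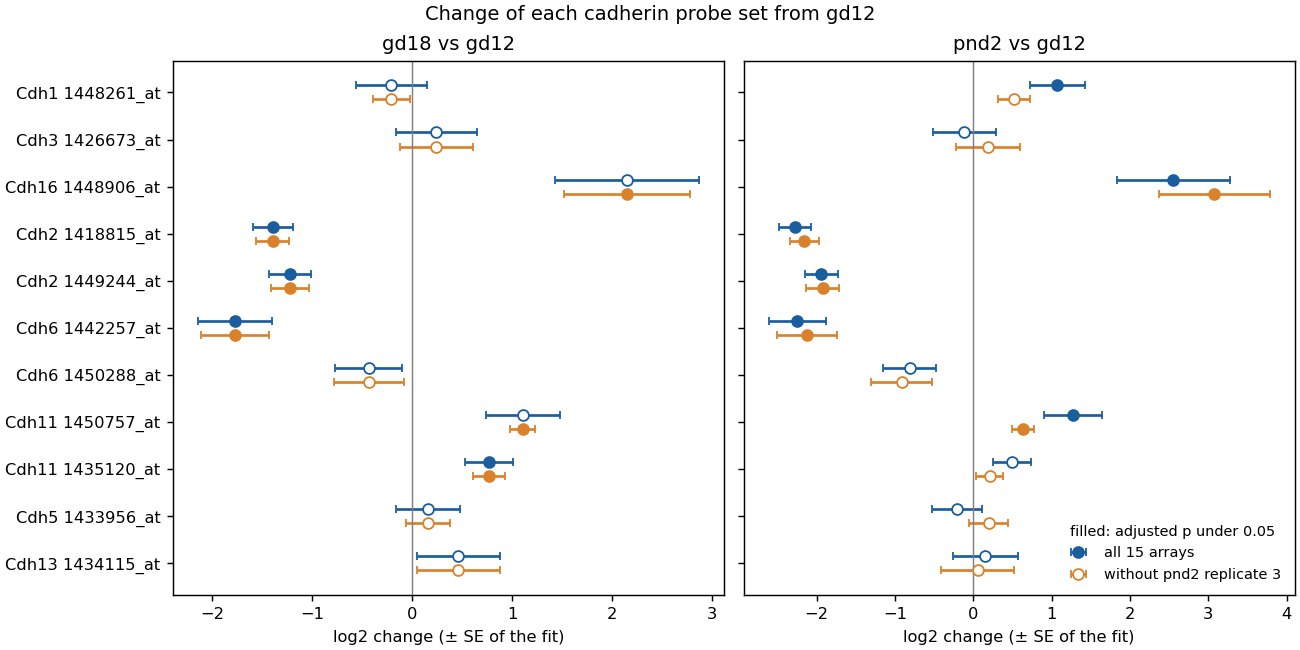
Log2 change of each tested cadherin probe set at gd18 (left) and pnd2 (right) against gd12, with the standard error of the limma fit as bars, from all 15 arrays (blue) and without pnd2 replicate 3 (orange). Filled symbols passed an adjusted p of 0.05. Both Cdh2 probe sets and 1 of Cdh6 are filled on the low side in both panels, and Cdh1 at pnd2 is filled only with all 15 arrays.

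Cdh1 encodes E-cadherin, the main cadherin of simple epithelia, and was read by 1 probe set (1448261_at). Its signal was 403, 533 and 492 at gd12, 283, 431 and 394 at gd14, and 309.6, 329.7 and 239 at gd16. It was 370.2, 433 and 421 at gd18, and 722, 652 and 2177 at pnd2. The stage means dipped to gd16 and were highest at pnd2, where all 3 arrays lay above all of the other 12, with replicate 3 far above the other two. The stages ran gd16, gd14, gd18, gd12 and pnd2 from low to high, and of these neighbours only gd12 and pnd2 did not overlap. At pnd2 the signal was 2.10-fold that at gd12 (log2 change 1.07, SE 0.35, n = 3 each, limma adjusted p = 0.0438). Without pnd2 replicate 3 the log2 change was 0.52 (SE 0.21, adjusted p = 0.0719), and over 26 other settings the adjusted p was 0.0142 to 0.25, with 8 under the threshold. The test for any change over the 5 stages gave Cdh1 an adjusted p of 0.0176, and it stayed under 0.05 in all 25 other settings (0.00135 to 0.0419).

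Cdh16 encodes Ksp-cadherin, known from kidney tubules and, in the mouse, from the epithelium of the Wolffian duct and its derivatives. Its probe set (1448906_at) gave 1637, 165 and 2965 at gd12, 3492, 3468 and 2766 at gd14, and 2101, 2429 and 1885 at gd16. At gd18 it gave 4574, 4025 and 4169, and at pnd2 7396, 8824 and 2729. The gd18 arrays lay above all arrays of gd12, gd14 and gd16, and pnd2 replicates 1 and 2 above every other array, while pnd2 replicate 3 fell inside the gd12 range. The order of stage means was gd12, gd16, gd14, gd18 and pnd2. The neighbours gd12 and gd16 overlapped, as did gd18 and pnd2. At pnd2 the signal was 5.87-fold that at gd12 (log2 change 2.55, SE 0.72, adjusted p = 0.0211). This size rests in part on gd12 replicate 14, without which the log2 change was 1.35 (SE 0.39, adjusted p = 0.0355). Without pnd2 replicate 3 it was 3.07 (SE 0.71, adjusted p = 0.00392). Over 26 settings 24 kept the call (adjusted p 0.00147 to 0.2), and it was lost without pnd2 replicate 2 (0.0549) and in a fit to the 6 arrays of gd12 and pnd2 alone (0.2). Markers of epithelium moved the same way as Cdh16 and Cdh1 at pnd2 against gd12. There 7 of 11 rose and 0 fell, with a median log2 change of 1.49. Without pnd2 replicate 3, 10 of 11 rose (median 2.11), and Cdh1 was not called (log2 change 0.52). Of all probe sets 10.3% rose and 10.8% fell, or 14.4% and 13.7% without that array. The summed signal of the markers was 19323 to 30901 at pnd2 (28694 to 30901 without replicate 3) and 7891 to 10262 at gd12. At gd14 and gd18 against gd12, 4 and 6 of 11 markers rose and 0 fell, with median log2 changes of 1.40 and 1.53. Of all probe sets 5.08% and 9.44% rose there, and 3.63% and 7.09% fell. In these comparisons Cdh16 had log2 changes of 1.75 and 2.15, and Cdh1 had -0.36 and -0.21, none called with all arrays. The part of epithelium in the rises of Cdh16 and Cdh1 was not tested.

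Cdh3 encodes P-cadherin, a cadherin of placenta and of basal epithelial cells. The tested probe set (1426673_at) gave 189, 123 and 178 at gd12, 162, 70.5 and 190.5 at gd14, and 117, 39.4 and 64.5 at gd16. It gave 236, 212 and 144 at gd18 and 179.8, 192 and 91.3 at pnd2. The gd18 arrays lay above the gd16 arrays, and the arrays of the other neighbouring stages overlapped. It was not called in any comparison of 2 stages, and 11 of the 15 arrays lay at or above their median.

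Cdh2 encodes N-cadherin, the cadherin of neural tissue and of much mesoderm, and was read by 2 tested probe sets. The brighter (1418815_at) gave 2385, 1653 and 1502 at gd12, 2269, 2709 and 2679 at gd14, and 1469.9, 1338 and 1347 at gd16. It gave 683, 648 and 711 at gd18 and 335, 462 and 302 at pnd2. From gd14 onward no array of a stage overlapped those of the next, and only gd12 and gd14 shared a range. The second (1449244_at) gave 638, 528 and 529.8 at gd12, 687, 740.3 and 799.7 at gd14, and 349, 364 and 409 at gd16. It gave 303, 244 and 168 at gd18 and 143, 131 and 132 at pnd2. Here no 2 neighbouring stages overlapped, and both probe sets placed the stages in the order pnd2, gd18, gd16, gd12 and gd14.

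At gd18 Cdh2 fell 2.62-fold against gd12 by the brighter probe set (log2 change -1.39, SE 0.20, adjusted p = 0.000281) and 2.33-fold by the second (-1.22, SE 0.21, adjusted p = 0.000945). At pnd2 it fell 4.85-fold against gd12 (log2 change -2.28, SE 0.20, adjusted p = 2.57e-06) and 3.83-fold (-1.94, SE 0.21, adjusted p = 1.45e-05). All 3 pnd2 arrays were below all 3 gd12 arrays on both probe sets, and without pnd2 replicate 3 the log2 changes were -2.16 and -1.92. These 4 calls held in every one of the 25 or 26 other settings, with a highest adjusted p of 0.00621. On the brighter probe set the steps from gd14 on were each close to a log2 unit. They were -0.87 for gd16 against gd14 (adjusted p = 0.221), -1.01 for gd18 against gd16 (0.0875) and -0.89 for pnd2 against gd18 (0.0645). These passed without pnd2 replicate 3, at adjusted p = 0.0216, 0.00718 and 0.0473. They passed in 3, 6 and 3 of 26 settings, which ranged over 0.00365 to 0.722, 0.00149 to 0.346 and 0.0143 to 0.591. The first step, gd14 against gd12, was 0.49 upward (adjusted p = 0.169; 0.0419 without pnd2 replicate 3; 0.0233 to 0.424 over 26 settings). On the second probe set the steps from gd14 on were called in 3, 0 and 0 of 25 settings. Their limma adjusted p ranged over 0.00611 to 0.607, 0.0838 to 0.9999 and 0.0548 to 0.591. Over the 15 arrays the 2 probe sets had a Pearson r of 0.965, as a description of arrays that share their RNA.

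Many germ cell and testis markers were lower at gd18 and pnd2 than at gd12, as were Cdh2 and Cdh6. Their steps are given by interval, and whether these differed was not tested. Of 8 tested germ cell markers 6 fell at gd14 and 8 at gd18 and pnd2 against gd12. Of all probe sets 3.63%, 7.09% and 10.8% fell in these comparisons. A marker high only on the gd12 arrays passed the filter of 3 arrays, so these counts are a description and no test. The median log2 change of the germ cell markers was -2.54 at gd14 against gd12. There the brighter probe sets of Cdh2 and Cdh6 had 0.49 and 0.32, neither called with all 15 arrays. Cdh2 was called higher there without pnd2 replicate 3 (limma adjusted p = 0.0419). At gd16 against gd14 the germ cell median was -1.49. In that interval 1 marker was called (0.0616% of all probe sets in either direction). An unadjusted p under 0.05 was found for 6 markers and for 1344 of all 25981 probe sets. In that second interval the log2 changes were -0.87 for the brighter Cdh2 probe set and -1.46 for the brighter Cdh6 probe set, neither called. In the next intervals the germ cell median was -0.06 at gd18 against gd16 and -0.14 at pnd2 against gd18. There the log2 changes were -1.01 and -0.89 for that Cdh2 probe set and -0.63 and -0.47 for that Cdh6 probe set. None of these was called with all 15 arrays. Of 8 tested testis markers 5 fell at each of gd14, gd18 and pnd2 against gd12, where 3.63%, 7.09% and 10.8% of all fell. The part of these cells in the fall of Cdh2 and Cdh6 was not tested.

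Cdh6 encodes K-cadherin, a cadherin of the fetal kidney and of nephron precursors. The brighter probe set (1442257_at) gave 1189, 449.6 and 835 at gd12, 929, 1074 and 883 at gd14, and 471, 254 and 323 at gd16. It gave 347, 187 and 148 at gd18 and 123, 215 and 124 at pnd2. The gd16, gd18 and pnd2 arrays lay below every gd14 array, the gd18 and pnd2 arrays also below every gd12 array, and gd16, gd18 and pnd2 overlapped stage by stage. Against gd12 the signal fell 3.41-fold at gd18 (log2 change -1.77, SE 0.37, adjusted p = 0.0041) and 4.73-fold at pnd2 (-2.24, SE 0.37, adjusted p = 0.000598). Both calls held in all 26 other settings, with adjusted p up to 0.0264 and 0.024. The step at gd16 against gd14 was -1.46 (adjusted p = 0.279).

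The second Cdh6 probe set (1450288_at) gave 177, 85.4 and 149 at gd12, 104, 93.3 and 129 at gd14, and 32.5, 66.5 and 74.6 at gd16. It gave 118, 84.1 and 81.7 at gd18 and 68.8, 56.3 and 81.0 at pnd2. The pnd2 arrays were again below all gd12 arrays, by a log2 change of -0.81 that was not called (SE 0.34, adjusted p = 0.101). This probe set reached its array's median on only 3 of the 15 arrays, and its Pearson r with the other over the 15 arrays was 0.54. From low to high it placed the stages gd16, pnd2, gd18, gd14 and gd12. The brighter one placed them pnd2, gd18, gd16, gd12 and gd14. The gd18 arrays lay above the gd16 arrays on this probe set, where the brighter one had a log2 change of -0.63 that was not called. The fall of Cdh6 was thus called on the brighter probe set only.

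Cdh6 is the member whose promoter is held in the RefSeq promoter table used here (GRCm38.p6), and it is shown because this gene fell over the stages. The 300 bases run from 250 before to 50 after the start of the gene, at chr15:13173626-13173925 on the minus strand. Capitals mark the E-box, searched as CANNTG, the core to which Snail, Zeb and Twist proteins bind.

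Cdh6: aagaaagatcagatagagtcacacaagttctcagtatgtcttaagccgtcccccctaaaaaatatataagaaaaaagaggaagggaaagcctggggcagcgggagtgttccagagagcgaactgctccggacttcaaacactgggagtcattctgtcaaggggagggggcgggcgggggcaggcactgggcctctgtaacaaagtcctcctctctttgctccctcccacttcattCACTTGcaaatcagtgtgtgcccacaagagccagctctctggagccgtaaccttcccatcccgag

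The search found 1 such word, CACTTG, which begins 15 bases before the start of the gene. The narrower word CAGGTG, 1 form of CANNTG, was searched on both strands and was not found in this window. Of 32851 promoters of the same length 72.3% held CANNTG and 20.2% held CAGGTG, so this match is a description only.

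Cdh1 and Cdh2 were also set against each other within each array, as a description. The difference log2 Cdh1 minus log2 Cdh2, given as its shift from the gd12 mean because the 2 probe sets have no common scale, was -0.85 at gd14, -0.29 at gd16, 1.18 at gd18 and 3.35 at pnd2 with the brighter Cdh2 probe set. With the second it was -0.75, -0.10, 1.02 and 3.01. Leaving out pnd2 replicate 3, the pnd2 shifts were 2.68 and 2.44, a ratio of Cdh1 to Cdh2 that was 6.40-fold and 5.44-fold that at gd12. At gd18 against gd12 the log2 change was -0.21 for Cdh1, not called, and -1.39 for the brighter Cdh2 probe set. At pnd2 against gd12 without replicate 3 these were 0.52, not called, and -2.16. The larger part of these shifts was thus the fall of Cdh2. The 3 gd18 arrays lay above all gd12, gd14 and gd16 arrays with both probe sets, and the 3 pnd2 arrays above all of gd18, also with replicate 3 left out. The epithelial markers given above rose over the same span. Without replicate 3, 10 of 11 were called higher at pnd2 than at gd12 (14.4% of all probe sets) and 9 of 11 at gd18 (17.8% of all). The part of epithelium in this shift was not tested.

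**Figure D3:**
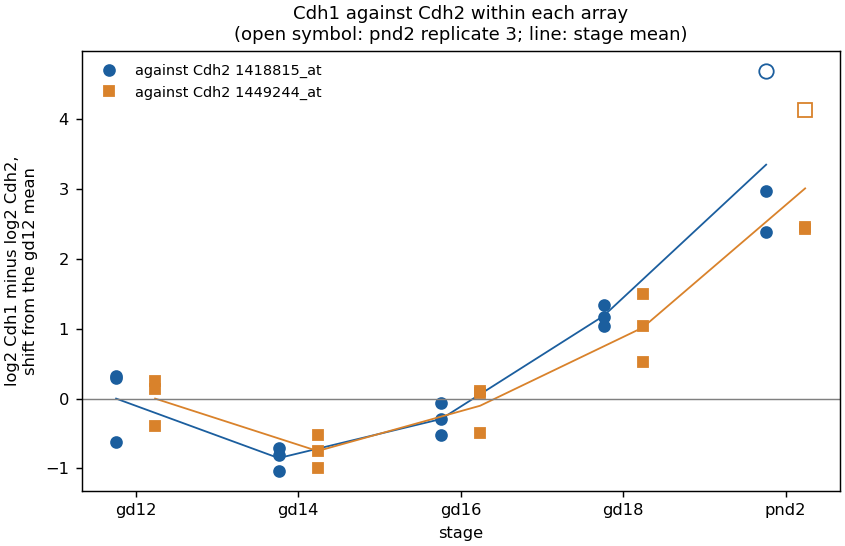
Log2 Cdh1 minus log2 Cdh2 on each array (vertical axis, log2 units, as the shift from the gd12 mean) against stage, for the 2 Cdh2 probe sets. Points are arrays, open symbols pnd2 replicate 3 and lines stage means. The gd14 arrays are the lowest, the gd18 arrays lie above the earlier stages and the pnd2 arrays above gd18.

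Cdh11 encodes OB-cadherin, a cadherin of mesenchyme and of bone-forming cells, and had 2 tested probe sets. The brighter (1450757_at) gave 3128, 3302 and 3845 at gd12, 10634, 9344 and 10942 at gd14, and 8117, 10926 and 9559.9 at gd16. It gave 7684, 7536 and 6889 at gd18 and 4764, 5880.3 and 20291 at pnd2. All arrays after gd12 lay above the gd12 arrays, and pnd2 held both the lowest of those later values and, on replicate 3, the highest. The second (1435120_at) gave 407, 505 and 449 at gd12, 1297, 1311 and 1392 at gd14, and 1232, 1063 and 1122 at gd16. It gave 646, 759.5 and 973 at gd18 and 473, 582 and 965 at pnd2. The stages gd14, gd16 and gd18 followed each other downward without overlap on this probe set, and pnd2 overlapped both gd18 and gd12.

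At gd14 Cdh11 rose 3.00-fold against gd12 by the brighter probe set (log2 change 1.59, SE 0.37, adjusted p = 0.0141) and 2.88-fold by the second (1.53, SE 0.24, adjusted p = 0.000956). The second held in all 25 other settings. The first held in 23 of 26 and missed the threshold without gd12 replicate 14, gd14 replicate 10 or gd14 replicate 12 (adjusted p = 0.0539, 0.0543 and 0.0566). Against gd12, gd18 was 1.70-fold higher by the second probe set (log2 change 0.77, SE 0.24, adjusted p = 0.0381), a call kept in 11 of 25 settings (adjusted p 0.00122 to 0.16). By the brighter one the log2 change was 1.11 (SE 0.37, adjusted p = 0.0543), and 9 of 26 settings called it (5.57e-06 to 0.142). At pnd2 the brighter probe set was 2.42-fold that at gd12 (log2 change 1.28, SE 0.37, adjusted p = 0.0238). Without pnd2 replicate 3 it was 1.55-fold (log2 change 0.63, SE 0.14, adjusted p = 0.00286), and the call was lost without gd12 replicate 13 (0.0703), without gd12 replicate 14 (0.0687) and in the fit to those 2 stages alone (0.208). The second probe set gave 0.49 at pnd2 against gd12 and was not called (adjusted p = 0.151). The markers of mesenchyme rose from gd12 to gd14 as well: 7 of 9 were called higher at gd14, where 5.08% of all probe sets were. The summed signal of these markers was 131192 to 144501 at gd14 and 56056 to 68634 at gd12. At pnd2 the summed marker signal was 177233 to 198162, above its gd14 range, where replicates 1 and 2 of Cdh11 lay below theirs. The part of mesenchyme in the rise of Cdh11 was not tested.

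Cdh5 encodes VE-cadherin, the cadherin of endothelial junctions. Its tested probe set (1433956_at) gave 144, 181 and 216 at gd12, 293, 221 and 229.7 at gd14, and 271, 203 and 326 at gd16. It gave 193, 179 and 234 at gd18 and 218, 196 and 79.0 at pnd2. The gd14 arrays lay above the gd12 arrays, and all other neighbouring stages overlapped. No comparison was called, and the log2 change at pnd2 against gd12 was -0.21 (SE 0.32, adjusted p = 0.667), or 0.20 (SE 0.25) without pnd2 replicate 3. Other markers of endothelium did change in that comparison. Of 15 tested, 5 fell (Plvap -1.78, Cldn5 -1.08, Flt1 -1.02, Mmrn2 -1.01 and Sox18 -0.90 log2) and 1 rose (Eng, 0.996), and their summed signal was 6595 to 8961 at pnd2 against 10586 to 13586 at gd12. The shares of all probe sets were 10.8% lower and 10.3% higher. There were again 5 lower and 1 higher without pnd2 replicate 3, against 13.7% and 14.4% of all. In that fit Sox18 lost its call (-0.61, adjusted p = 0.0617), Sox17 gained one (-0.60, adjusted p = 0.0265), the list's median log2 change was -0.41 in place of -0.87, and the summed signal at pnd2 was 7962 to 8961. Whether Cdh5 differed from these markers was not tested.

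Cdh13 encodes T-cadherin, which is held in the membrane by a lipid anchor and lacks the inner domain that binds catenins. Its tested probe set (1434115_at) gave 139, 81.5 and 67.6 at gd12, 173, 136 and 153 at gd14, and 82.6, 18.8 and 71.5 at gd16. It gave 128, 86.6 and 208 at gd18 and 78.9, 118 and 120.3 at pnd2. The gd16 arrays lay below those of gd14 and of gd18, by log2 changes of -1.34 (gd16 against gd14, SE 0.41, adjusted p = 0.514) and 1.15 (gd18 against gd16, SE 0.41, adjusted p = 0.567), and neither was called. It reached its array's median on 6 of the 15 arrays.

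The 5 probe sets that did not pass the filter were 1 of Cdh3 (1441255_at), 1 of Cdh5 (1422047_at) and 3 of Cdh13 (1423551_at, 1454015_a_at and 1431824_at). Over the 15 arrays their signal was 2.03 to 84.4, 3.07 to 57.8, 3.45 to 103, 1.06 to 70.7 and 2.17 to 46.5 in that order. The Cdh3 probe set reached its array's median on 1 array and the other 4 on 0, so no change was tested for them.

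The pool of whole newborns gives each probe set a further point, from 1 array and with no test. Cdh1 reached at most 2177 on the epididymis arrays, on pnd2 replicate 3, and at most 722 on the other 14, against 2255 in the pool. Cdh5 reached at most 326 in epididymis against 385 in the pool, and Cdh13 at most 208 against 1045. The Cdh13 probe set 1423551_at, which did not pass the filter, was at most 103 in epididymis against 473 in the pool. Both Cdh11 probe sets were higher on all 15 epididymis arrays (at least 3128 and 407) than in the pool (1750.2 and 168). Cdh16 was higher on 14 of 15 epididymis arrays than in the pool (608), all but gd12 replicate 14. For Cdh2 the pool (1340.0 and 343) fell inside the epididymis range, as it did for Cdh3 (92.7) and Cdh6 (311 and 138).

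That gd12 array was singled out after its values were seen. The claudins Cldn3, Cldn4 and Cldn7, which seal epithelial tight junctions, were low on it beside Cdh16. Cldn4 had 19.9 on gd12 replicate 14, against 254 on replicate 13 and 272 on replicate 15. Cldn3 had 8.56 there against 80.6 and 92.2, and Cldn7 109 against 485 and 679. The keratins Krt8 (803 against 1561 and 1755) and Krt18 (462 against 937 and 919) and the transcription factor Pax8 (39.1 against 134 and 191) were also lowest there. Cdh1 (533 against 403 and 492) and Epcam (3530.2 against 2873 and 3005), both epithelial surface proteins, were instead highest on that array, and Krt19 was 234 against 250.2 and 262. Of the 11 tested epithelial markers 9 were lowest on that array, all but Epcam and the protease inhibitor Spint2. Its summed germ cell marker signal was 24009, against 15705 on replicate 13 and 22038 on replicate 15. The part of these cell types in the low Cdh16 of that array was not tested.

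**Figure D4:**
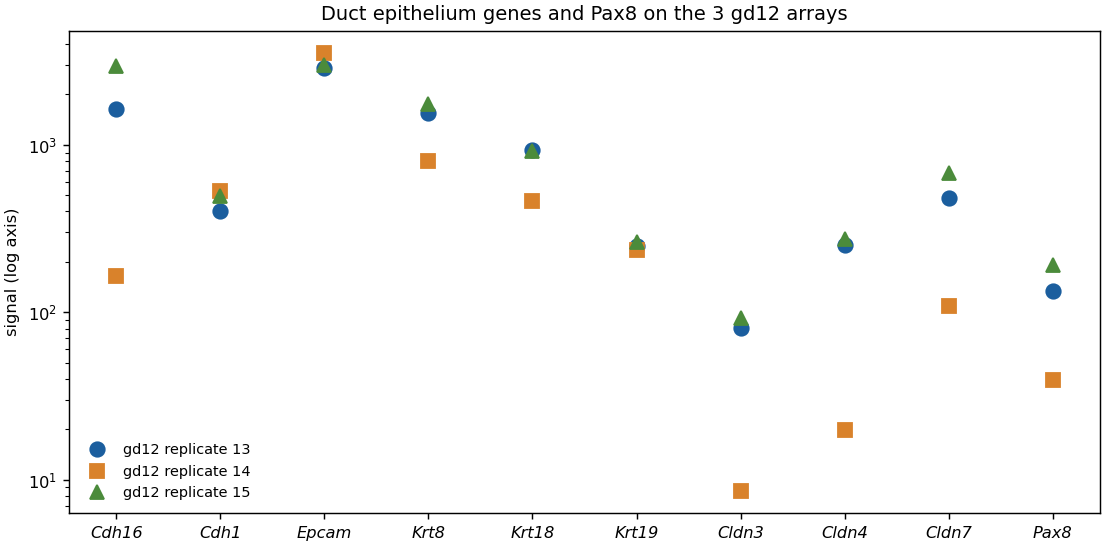
Signal (log axis) of Cdh16, Cdh1, 7 epithelial genes and Pax8 on the 3 gd12 arrays, each symbol 1 array; symbols are to be compared within a gene. Replicate 14 (square) is far below the others for Cdh16, Cldn3, Cldn4 and Cldn7, and level with or above them for Cdh1, Epcam and Krt19.

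Of 23 genes of the adherens junction, the catenins that bind classical cadherins among them, 20 were tested, each by its brightest probe set. At pnd2 against gd12, 5 rose and 0 fell, where 10.3% of all probe sets rose and 10.8% fell, and the list's median log2 change was -0.0025 where that of all probe sets was -0.14. In the fit without pnd2 replicate 3, 5 rose and 2 fell, against 14.4% and 13.7% of all. The 2 were the protease gene Adam10 (-0.37, adjusted p = 0.0243) and Afdn, which encodes afadin (-0.45, adjusted p = 0.0386; 0.14 with all 15 arrays). With all 15 arrays the largest rises were of Ctnnd2 (delta-catenin, 1.25) and Vcl (vinculin, which ties the junction to actin, 1.15). Nectin3 (1.07) and Iqgap1 (a scaffold protein, 0.80) came next. Without pnd2 replicate 3 these 4 had 1.22, 0.69, 0.78 and 0.85, and Pkp4 (0.73) lay above Vcl. In the fit to all 15 arrays Ctnnb1, which encodes beta-catenin, had a log2 change of -0.0012 (SE 0.11, limma adjusted p = 0.995). Ctnna1, which encodes alpha-catenin, had 0.20 (SE 0.15, limma adjusted p = 0.359). At gd18 against gd12, 3 rose and 2 fell (9.44% and 7.09% of all), and 6 rose and 4 fell without pnd2 replicate 3 (17.8% and 15.4% of all). Ctnnd2 (1.10) and Pkp4 (0.69) were among the risers, and Jup (plakoglobin, -2.17) and Ctnnal1 (-0.96) fell. Jup had 29.5, 42.9 and 58.9 at gd18 against 114, 314 and 407 at gd12. At gd14 against gd12, 1 rose (Ctnnd2, 0.95) and 1 fell (Ctnnal1, -1.58), where 5.08% of all rose and 3.63% fell. With pnd2 replicate 3 left out, 2 rose (Nectin3 added, 0.48) and 2 fell (Ctnnd1 added, -0.57), against 13.7% and 10.1% of all. The desmosome, other cadherin and regulator counts were set against the same shares.

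Desmosomes use their own cadherins, the desmogleins and desmocollins. Of 12 desmosome genes 11 were on the array and 8 were tested. At gd14 against gd12, 2 fell and 0 rose, namely the plakophilin Pkp2 (-1.53) and the desmoglein Dsg2 (-0.80), and without pnd2 replicate 3 Dsc2 (-0.98) fell too. Of all probe sets 3.63% fell and 5.08% rose, or 10.1% and 13.7% without that array. At pnd2 against gd12, 3 rose and 0 fell, namely Dsc3 (1.64), Pkp3 (0.90) and Dsg2 (0.83), where 10.3% of all rose and 10.8% fell. Dsg2 had 911, 1097 and 975 at gd12, 451, 679 and 580.4 at gd14, and 2175, 1645 and 1567 at pnd2. At gd18 against gd12, Dsc3 (2.29) and Pkp3 (0.90) rose and Pkp2 (-1.44) fell, and without pnd2 replicate 3 Ppl (0.95) rose and Dsc2 (-0.92) fell as well. The shares of all probe sets were 9.44% higher and 7.09% lower, or 17.8% and 15.4% without that array. The desmocollin Dsc3 had 141, 69.9 and 62.8 at gd18 against 6.24, 2.07 and 6.79 at gd12, where its signals were below the pseudocount of 16. Dsc3 passed the filter only through arrays after gd12, so the counts that include it are a description and no test. The same gd12 signals underlie its change at pnd2, so neither size can be read closely. All 3 pnd2 arrays of Dsg2 lay above the gd12 arrays, and all 3 gd14 arrays below them. Pkp2 had 505, 548 and 1299 at pnd2 against 913, 1129.9 and 860.4 at gd12, pnd2 replicate 3 again the highest. Without that array 3 desmosome genes were called higher at pnd2 (again Dsc3, Pkp3 and Dsg2) and 2 lower (Pkp2 -0.85 and Dsc2 -0.68). The shares of all in that fit were 14.4% and 13.7%.

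Of 35 other genes of the cadherin superfamily 32 were on the array and 20 were tested. At gd14 against gd12, 7 rose and 0 fell, where 5.08% and 3.63% of all did, and 11 rose and 0 fell without pnd2 replicate 3, where 13.7% and 10.1% did. The list's median log2 change was 0.93, against 0.07 for all probe sets. Among the risers were Fat4 (1.95), Pcdh7 (1.72) and Fat3 (1.69). Cdh8 was also called (1.77), from 125, 56.0 and 171 at gd14 against 20.8, 5.63 and 44.2 at gd12, signals around the pseudocount of 16 that leave the size of its change unreadable. Cdh8 passed the filter only through arrays after gd12, so the counts of risers at gd14 that include it are a description and no test. Fat4 and Dchs1 encode a receptor and its ligand that bind each other across cells in planar polarity signalling, and Dchs1 also rose (1.44, adjusted p = 0.00466). Fat4 had 2527, 3071 and 3039 at gd14 against 1226, 396 and 799 at gd12. Against gd12, gd18 had 6 higher and 2 lower (9.44% and 7.09% of all), led by Fat3 (2.53), Fat4 (2.14), Pcdh9 (1.91) and Pcdh8 (-1.68). At pnd2 there were again 6 higher and 2 lower (10.3% and 10.8% of all), led by Fat3 (2.04), Cdh10 (-1.93), Pcdh8 (-1.78) and Clstn2 (1.77). The mesenchyme markers named above rose in the same interval, and their part in these rises was not tested.

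Of 12 regulators known to repress or activate Cdh1 in epithelial cells 11 were on the array and 8 were tested. At pnd2 against gd12, 2 rose (Grhl2, an activator of epithelial genes, 1.77, and Twist2, a repressor, 1.63) and 1 fell (Snai2, a repressor, -1.22). Of all probe sets 10.3% rose and 10.8% fell there. Snai2 had 7042, 6203 and 16499 at pnd2 against 22836, 20942 and 19163 at gd12, and without the high replicate 3 its log2 change was -1.66 (adjusted p = 8.43e-08). At gd18 the same 3 genes were called against gd12 in the same directions (Twist2 1.61, Grhl2 1.40, Snai2 -1.30), and at gd14 only Twist2 (1.36) with all 15 arrays. Of all probe sets 9.44% rose and 7.09% fell at gd18, and 5.08% and 3.63% at gd14. Without pnd2 replicate 3, gd14 had Twist2, Grhl2 (0.92) and Zeb1 (0.37) higher and Snai2 (-0.47) lower than gd12, and gd18 had Zeb1 (0.39) higher as well. The shares of all in that fit were 13.7% higher and 10.1% lower at gd14, and 17.8% and 15.4% at gd18. Zeb1 and Zeb2, repressors of Cdh1, had log2 changes of 0.28 and -0.13 at pnd2 and were not called (adjusted p = 0.532 and 0.771). Both changed sign without pnd2 replicate 3, to -0.22 and 0.03 (adjusted p = 0.232 and 0.952). Zeb1 had 3484, 3291 and 9649 at pnd2 against 3490, 3934 and 4514 at gd12, replicate 3 the highest. In the 3 intervals after gd14, limma called 0 genes of these 4 lists with all 15 arrays, where 0.0616%, 0.142% and 0.558% of all probe sets were called. Over the other 14 arrays it called Snai2 (-0.52) at gd16 against gd14, Pkp3 (1.03) at gd18 against gd16, and Dsg2 (0.99), Pcdh9 (-0.95) and Zeb1 (-0.61) at pnd2 against gd18. The shares of all in that fit were 0.731%, 1.01% and 1.75%. At an unadjusted p under 0.05 with all 15 arrays, adherens junction genes numbered 1, 0 and 3 of 20 and desmosome genes 2, 4 and 4 of 8. Other cadherins numbered 3, 3 and 3 of 20, and regulators 0, 0 and 2 of 8. All probe sets at that threshold numbered 1344, 1637 and 5338 of 25981.

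The genes whose pattern was most like each cadherin were found by Pearson r over the 15 arrays, which share their stages, among probe sets whose stage means spanned at least 1 log2 unit. For Cdh1 these were Hacd1 (0.955), Dsg2 (0.954) and Bag1 (0.948), and over 14 arrays without pnd2 replicate 3 Dsg2 (0.932), the protease inhibitor Spint2 (0.930) and Pdzk1ip1 (0.883). For Cdh16 they were Grb7 (0.959), the claudin Cldn9 (0.954) and Hoxb6 (0.939), and over 14 arrays Cldn9 (0.973), Grb7 (0.968) and Cldn7 (0.967). Dsg2 was thus close to Cdh1, and Cldn9 and Grb7 to Cdh16, with and without that array. For Cdh2 they were Tenm4 (0.964), Edil3 (0.951) and the embryonic globin Hbb-y (0.950). Tenm4 and Hbb-y stayed nearest to Cdh2 over 14 arrays. For Cdh6 they were Gucy1a1 (0.942), Kirrel3 (0.938) and Igf2bp3 (0.932), and for Cdh11 Pnisr (0.964), Tsc22d1 (0.950) and Rdh14 (0.936), with Tgfb2 (0.965) first over 14 arrays. For Cdh3, Cdh5 and Cdh13 the nearest were Rbm42 (0.818), Herc2 (0.911) and Tmem151b (0.785), and over 14 arrays they were Apod (0.855), Trpc4ap (0.817) and Birc6 (0.838).

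In the mouse gene table used for names (GRCm38.p6), 6 of the 8 genes lie on chromosome 8, in the order Cdh11, Cdh5, Cdh16, Cdh3, Cdh1 and Cdh13. Cdh6 is on chromosome 15 and Cdh2 on chromosome 18. Cdh3 and Cdh1 are neighbours with 0 protein-coding genes between them, and so are Cdh11 and Cdh5. The neighbours differed in what was called: Cdh1 was called at pnd2 against gd12 with all 15 arrays and Cdh3 was not, and Cdh11 was called at gd14 and Cdh5 was not. Whether the changes of neighbours differed was not tested.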

How the data were processed

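Expression was measured on 15 epididymis arrays and 1 newborn pool. Per the submitters' processing notes the deposited signal intensities, 1 per probe set on a linear scale, came from GCOS, the scanner software; no algorithm or version was given in the sources used here. Arrays share a trimmed mean of about 500, and the number of arrays limits the precision. Probe sets were named from the platform annotation (34945 with 1 symbol, 932 with several, 9160 not listed), and 64 controls were left out. Values were taken as log2(signal + 16), so folds of dim probe sets are understated. A model with 1 mean per stage was fitted in limma 3.58.1 (R 4.3.3) with an intensity trend, without the pool, and adjusted by Benjamini-Hochberg over 25981 probe sets. The method was tested on simulated data. Alternatives changed normalization, pseudocount, filter, probe sets, trend, weights and arrays. All probe sets of the members, the 4 gene lists and markers, and the 3 most similar genes were named, with up to 4 called genes per list and comparison and others chosen after their values were seen. The members and lists were chosen with earlier results of these data known.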

Additional observations from a re-analysis of the deposited data

How the results depend on the processing

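No called log2 change changed sign. Among values of single cadherin probe sets, leaving out 1 array kept the direction and the side of the threshold in 937, gained a call in 15, lost one in 30 and changed the sign of an uncalled value in 8; the other alternatives did so in 654, 27, 10 and 11. These uncalled log2 changes were, with the range over leaving out 1 array, for Cdh3 -0.27 (-0.51 to 0.12) and for Cdh6 (1442257_at) 0.32 (-0.055 to 0.63) at gd14 against gd12, and for Cdh5 0.084 (-0.066 to 0.26) at gd16 against gd14. At pnd2 against gd18 they were -0.37 for Cdh5 (-0.61 to 0.039; weights 0.049, without the 3 arrays in doubt 0.039) and 0.17 for Cdh11 (1450757_at; -0.47 to 0.57; quantile -0.0095, weights -0.47, 3 arrays -0.47). At pnd2 against gd12 they were -0.11 for Cdh3 (-0.29 to 0.19; quantile 0.0058, median centring 0.039, weights 0.18, 3 arrays 0.19), -0.21 for Cdh5 (-0.45 to 0.20; weights 0.15, 3 arrays 0.20) and 0.15 for Cdh13 (-0.036 to 0.41). For Cdh5, Cdh11 and Cdh3 at pnd2 the array whose removal changed the sign was pnd2 replicate 3. Cadherin calls numbered 2 for gd14 against gd12 (1 with a single probe set a gene, 4 with array quality weights, 1 to 3 leaving out 1 array), 0 for gd16 against gd14 (3 with weights, 3 with the compared stages only, 0 to 2), 0 for gd18 against gd16 (1 with quantile normalization, a single probe set or weights, 2 with the compared stages only, 0 to 1), 0 for pnd2 against gd18 (2 with weights, 0 to 2), 4 for gd18 against gd12 (3 to 6), and 6 for pnd2 against gd12 (3 with the compared stages only, 4 to 7). All probe sets called numbered 2265 for gd14 against gd12 (weights 5895, compared stages only 5054, without the 3 arrays in doubt 4470, leaving out 1 array 1313 to 6190). For gd16 against gd14 they numbered 16 (quantile 28, no trend 27, weights 471, compared stages 383, 3 arrays 35, 6 to 190), and for gd18 against gd16 37 (quantile 56, pseudocount of 1 18, weights 438, compared stages 281, 7 to 262). For pnd2 against gd18 they numbered 145 (median centring 71, pseudocount of 64 236, no filter 65, a single probe set 73, weights 864, 3 arrays 223, 3 to 820; compared stages only 0 in limma, with 2134 at an unadjusted p under 0.05). For gd18 against gd12 they numbered 4295 (a single probe set 2802, weights 7770, compared stages 7102, 3 arrays 8103, 2913 to 8643), for pnd2 against gd12 5476 (a single probe set 3362, compared stages 1456) and for any change 5440 (a single probe set 3239, weights 10008, 3753 to 10040). The highest counts of 6190, 190, 262, 8643 and 10040 came without pnd2 replicate 3. The 3 arrays in doubt, pnd2 replicate 3 with gd14 replicate 10 and gd16 replicate 9, were left out together after the data were seen, following an earlier account of these data. The cause of these differences was not tested. Scaling moved the median log2 change of all probe sets at pnd2 against gd18, which was -0.16, to 0.09 with median centring. No paired analysis was possible because the arrays are numbered 1 to 15 and no number is shared between stages. Signals near the pseudocount of 16 limit what can be read for Cdh13, Cdh8, Dsc3 and the untested probe sets.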
